A study of Rattus norvegicus with 9 samples.

Results

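The tight junction barrier genes examined here were Cldn3, Cldn4, Cldn5, Cldn7, Cldn18, Ocln, Tjp1, F11r and Cgn, measured in rat lung after ischemia-reperfusion. They were taken by gene name from a table of 22833 genes, and each name occurred there a single time, so that 9 of 22833 genes make up the set. All 9 had a mean FPKM of at least 0.5 (FPKM is a level scaled for transcript length and sequencing depth) and were among the 15402 genes tested. Lung RNA was sequenced in 3 libraries of each group, namely Sham, IR (ischemia-reperfusion) and I-post C (ischemic post-conditioning). According to the methods, the rats were male Sprague-Dawley animals aged 8 weeks. All were anaesthetized with urethane, given heparin, ventilated and opened at the chest. The hilum of the left lung was clamped for 30 min in IR rats and then released for 2 h. I-post C rats had 3 cycles of clamping and release, 30 s each, ahead of the 2 h of reperfusion, and in Sham rats the hilum was freed but not clamped. No genetic modification is named, and the lobe used for RNA is not stated. The study kept 6 rats per group, and the sources used here do not say which of them were sequenced. The labels do not say that the libraries came from separate animals, so p-values measure the spread between these libraries.

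Tight junctions seal the space between neighbouring epithelial or endothelial cells. Claudins are membrane proteins that polymerize into the sealing strands and set which ions and molecules pass, occludin and junctional adhesion molecule A (JAM-A, encoded by F11r) lie in the same membrane contacts, and the plaque proteins ZO-1 (encoded by Tjp1) and cingulin (encoded by Cgn) tie the strands to actin. In the lung, claudin-18 is the claudin typical of alveolar epithelium, claudin-3 and claudin-4 are expressed by alveolar type 2 and airway cells, and claudin-5 is best known from endothelium. These seals, together with the endothelial barrier, keep plasma fluid out of the air spaces.

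The promoters of 8 of the 9 genes were found among the RefSeq windows of rat build GRCr8, and Cldn4 was not among them. The 250 bases upstream of the start are printed for the pair of claudins whose levels varied most between libraries (Cldn3 and Cldn5), for the most abundant claudin (Cldn18) and for Cldn7, which held the largest number of E-boxes. All are written 5′ to 3′ on the gene's strand. Capitals mark matches on either strand. The TATA box was searched for as TATATA and also, as a separate motif, with the letters TATAAA. The CCAAT box was searched for by its name. The letters of the GC box were GGGCGG. The E-box that Snail-type repressors bind was written as CAGGTG.
Cldn3, chr12:27346548-27346797, minus strand: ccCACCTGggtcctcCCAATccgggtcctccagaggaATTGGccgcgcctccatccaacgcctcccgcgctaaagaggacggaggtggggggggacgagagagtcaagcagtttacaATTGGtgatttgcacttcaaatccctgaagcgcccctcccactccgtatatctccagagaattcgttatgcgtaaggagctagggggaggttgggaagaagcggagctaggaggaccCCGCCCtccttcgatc
Cldn5, chr11:95718599-95718848, minus strand: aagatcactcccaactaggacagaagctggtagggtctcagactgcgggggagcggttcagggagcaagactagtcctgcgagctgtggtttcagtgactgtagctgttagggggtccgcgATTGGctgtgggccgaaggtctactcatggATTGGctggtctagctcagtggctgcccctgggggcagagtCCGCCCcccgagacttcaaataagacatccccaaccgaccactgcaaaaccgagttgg
Cldn7, chr10:55188420-55188669, plus strand: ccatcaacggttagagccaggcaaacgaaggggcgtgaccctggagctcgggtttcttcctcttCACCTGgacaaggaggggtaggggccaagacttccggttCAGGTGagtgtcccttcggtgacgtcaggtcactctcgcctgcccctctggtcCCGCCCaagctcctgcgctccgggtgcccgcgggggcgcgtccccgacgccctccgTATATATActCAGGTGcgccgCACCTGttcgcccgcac
Cldn18, chr8:109144620-109144869, minus strand: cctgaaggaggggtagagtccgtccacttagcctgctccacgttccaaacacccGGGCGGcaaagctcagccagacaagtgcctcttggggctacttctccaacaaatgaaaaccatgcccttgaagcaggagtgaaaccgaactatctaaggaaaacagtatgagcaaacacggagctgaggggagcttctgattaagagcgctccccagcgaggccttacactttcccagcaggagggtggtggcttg
The Cldn7 window held 4 CAGGTG E-boxes, of which a pair followed the run where 2 TATATA matches overlapped. At least 1 such E-box was present in 15.6% of 27457 RefSeq windows of the same length, and 4 or more in 0.0328%. Among the other genes, the Ocln window held 2 of them, the Cldn3 and F11r windows 1 each, and the Cldn5, Cldn18, Tjp1 and Cgn windows 0. The Cldn3 window carried 3 CCAAT boxes and the Cldn5, F11r and Cgn windows carried 2 each, while 34.3% of all windows held at least 1. A GC box was found in 32.4% of all windows. It was found 7 times in the Cgn window, a single time in the Cldn3, Cldn5, Cldn7, Cldn18 and F11r windows, and not at all in those of Ocln and Tjp1. TATATA was found in 5.44% and TATAAA in 13.1% of all windows, and Cldn7 was the sole member of the set with either. The matches are letters in a window and were not tested as binding sites.

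Total counts ranged from 45110590 to 51214941 per library. Epithelial, alveolar type 1, alveolar type 2 and endothelial markers were present in every library, which fits the tissue label. Summed FPKM of the 10 pan-epithelial markers (Epcam, Cdh1 and others) ranged from 698.9 to 981.9 (Sham), 687.8 to 881.6 (IR) and 660.9 to 736.6 (I-post C). Summed FPKM of the 11 endothelial markers measured ranged from 840.3 to 1468, from 710.8 to 871.4 and from 973.9 to 1184 in the same order. A few libraries stood apart. Skeletal muscle markers summed to 4125 FPKM in IR 3 and to between 10.98 and 73.63 in the other libraries. Neutrophil markers ranged from 179.7 to 394.4 (Sham), 589.9 to 1201 (IR) and 260.3 to 1433 (I-post C). Sham 3 had higher levels of short transcripts and lower levels of long transcripts than the other libraries, and its values are given for each junction gene. The part of muscle or neutrophil RNA in the values of the 9 genes was not tested.

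The levels in the set were spread widely. Mean FPKM over the 9 libraries was 338.1 for Cldn18, 137.1 for F11r, 35.28 for Cldn7, 34.89 for Tjp1, 17.24 for Ocln, 15.36 for Cldn3, 12.6 for Cldn5, 12.02 for Cgn and 2.88 for Cldn4. Cldn18 thus ranked at the 98.9th percentile of the tested genes and Cldn4 at the 26.5th. Most steps in this order held library by library. Cldn18 exceeded F11r, F11r exceeded Cldn7, Tjp1 exceeded Ocln and Cgn exceeded Cldn4 in 9 of 9 libraries, and Ocln exceeded Cldn3 in 8 of 9. Neighbours in the middle did not separate. Cldn7 was above Tjp1 in 4 of 9 libraries, Cldn3 above Cldn5 in 6 of 9 and Cldn5 above Cgn in 3 of 9. The spread among libraries of a group differed as widely as the levels did. The within-group SD of log2 FPKM was 0.09 for F11r, at the 0.701th percentile of all tested genes, 1.24 for Cldn3 at the 98.1th, and 2.84 for Cldn5 at the 99.9th.

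**Figure D1:**
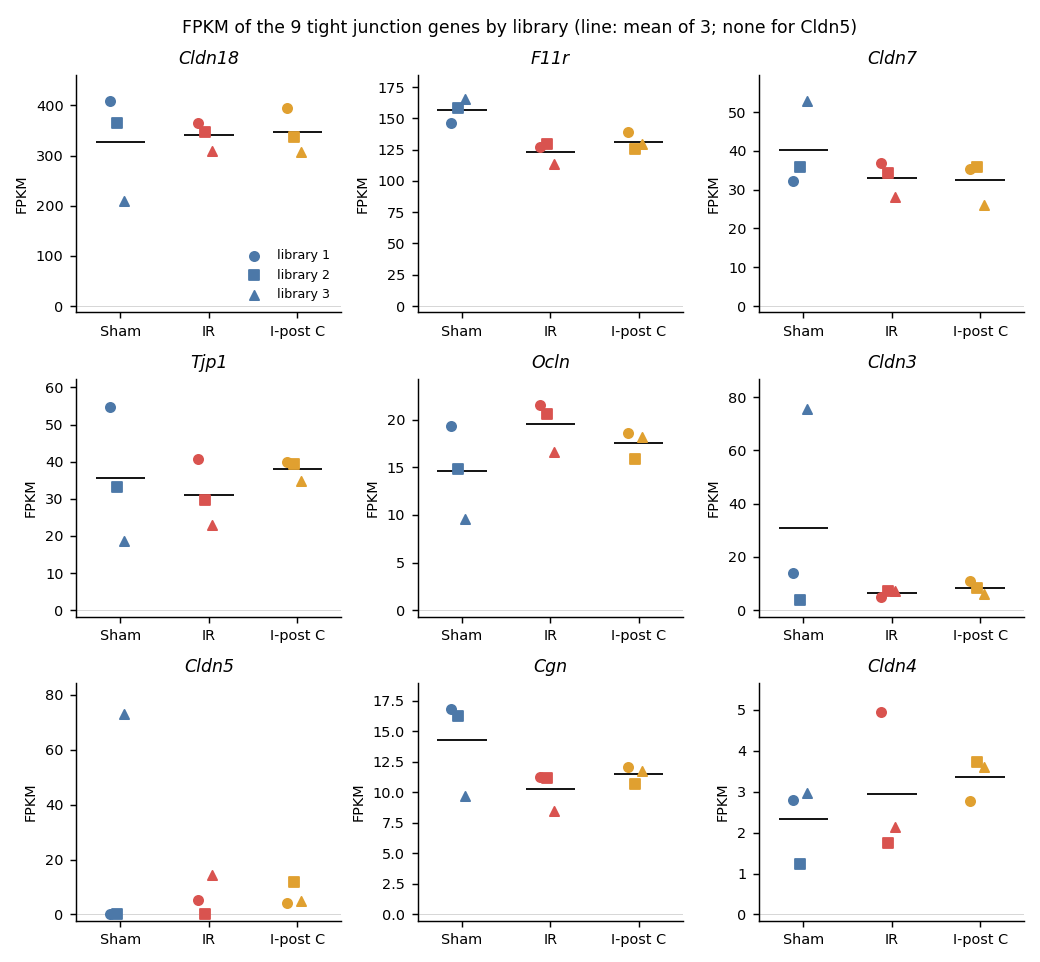
FPKM of the 9 tight junction genes (y axis, linear and different for each gene) for each group (x axis), with 1 point per library and a line at the mean of 3. No mean is drawn for Cldn5, which is listed at 0 in 3 libraries. Sham 3, the triangle in the Sham column, lies far above the rest for Cldn3 (75.4) and Cldn5 (73.07), and F11r is the gene whose Sham points all lie above those of IR.

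None of the 9 genes was a DEG (an adjusted p under 0.05 with an absolute log2 fold change, log2FC, of 1 or more) in any of the 3 comparisons by edgeR. None was called under any of the 22 alternatives either, DESeq2 and limma among them. Apart from Cldn3 and Cldn5, every gene had a log2FC below 1 in size in each alternative. For those genes the size cutoff alone barred a call, so the agreement of the alternatives adds little. For IR against Sham, 0.279% of all tested genes were DEGs in the higher direction and 0.0195% in the lower direction, 46 in all, and leaving out single libraries moved that number between 0 and 55. For I-post C against IR, and likewise against Sham, the share was 0% in each direction. At an unadjusted p under 0.05 by edgeR, Ocln was higher and Cldn3 lower in IR against Sham, 1 of 9 in each direction, where 6.47% and 5.77% of all genes were. For I-post C against IR that count was 0 of 9 (1.05% higher and 1.96% lower among all genes). For I-post C against Sham it was 1 of 9, again Cldn3, in the lower direction (3.19% of all genes) and 0 in the higher (3.72%). The median log2FC of the 9 genes was -0.25, -0.04 and -0.33 in the 3 comparisons, and that of all genes -0.02, -0.01 and -0.03. Without Sham 3 the medians of the 9 genes against Sham were -0.08 for IR and -0.11 for I-post C, and for I-post C it turned to 0.13 with limma on FPKM and to 0.05 with the replicate block. The log2FC was above 0 for 3 of the 9 genes in IR against Sham (47.9% of all genes), for 4 in I-post C against IR (47.6%) and for 4 in I-post C against Sham (47.2%). Each group enters a pair of the comparisons, which therefore share libraries, so their values are given side by side and not as independent evidence. In bulk tissue, fewer cells of a type and less RNA per cell cannot be told apart.

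**Figure D2:**
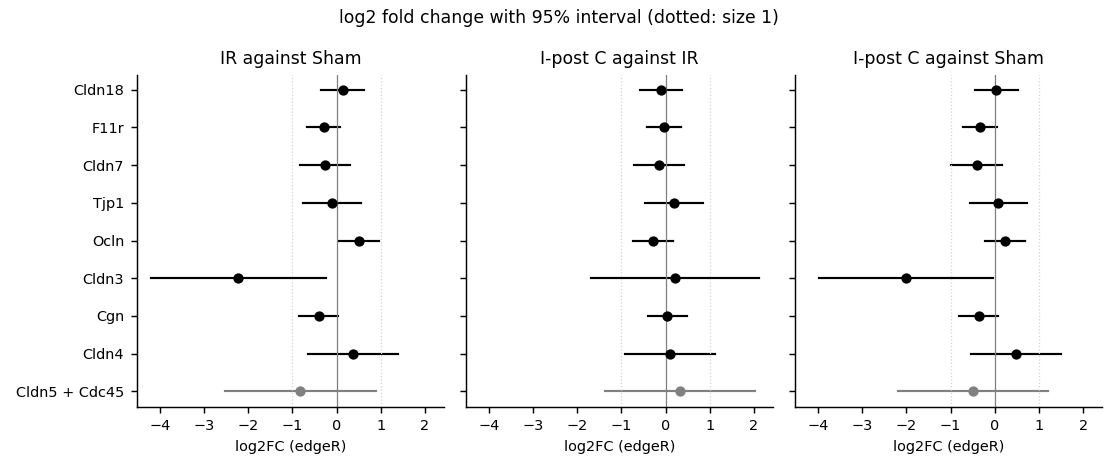
Log2FC from edgeR (x axis, the same scale in each panel) in the 3 comparisons, with bars for the 95% interval and dotted lines at a size of 1. The rows are 8 of the 9 genes and, in grey, the summed counts of Cldn5 and Cdc45, which stand in for Cldn5. The interval of Cldn3 is the widest (from -4.20 to -0.23 in IR against Sham), and every adjusted p was above 0.05.

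Cldn18 (rn6 chr8:107934860-107952530, minus strand), the alveolar claudin, had the highest deposited FPKM of the set in every library. Its FPKM was 409.6, 364.2 and 209.1 in Sham, 364.5, 346.5 and 309.5 in IR and 395, 337.8 and 306.3 in I-post C. The groups overlapped, and the lowest value was that of Sham 3. Group means were 327.6 ± 105.1, 340.2 ± 28.01 and 346.4 ± 44.98 (SD, n = 3 each). The log2FC was 0.14 in IR against Sham (95% interval -0.35 to 0.63, adjusted p = 0.8401 by edgeR). It was -0.10 in I-post C against IR (-0.59 to 0.38) and 0.03 in I-post C against Sham (-0.45 to 0.52). Without Sham 3 the first and the last turned to -0.08 and -0.18, and without I-post C 1 the last turned to -0.07, so neither direction is firm.

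Cldn7 (chr10:56576428-56578626, plus strand), a claudin of epithelial lateral membranes, had FPKM of 32.24, 35.91 and 52.92 in Sham, 36.79, 34.2 and 28.21 in IR and 35.24, 35.94 and 26.08 in I-post C. Sham 3 was the highest of the 9 and the other libraries overlapped. The log2FC was -0.25 in IR against Sham (-0.82 to 0.31), -0.16 in I-post C against IR (-0.72 to 0.41) and -0.41 in I-post C against Sham (-0.98 to 0.16). Without Sham 3 these were 0.04, -0.15 and -0.11. Cldn4 (chr12:24761210-24763005, plus strand), which is induced in injured alveolar epithelium of mice, was the least abundant of the set. Its FPKM was 2.79, 1.224 and 2.977 in Sham, 4.958, 1.745 and 2.128 in IR and 2.768, 3.723 and 3.608 in I-post C. IR 1 was the highest library and Sham 2 the lowest, and the groups overlapped. The log2FC was 0.38 in IR against Sham (-0.64 to 1.40), 0.09 in I-post C against IR (-0.92 to 1.11) and 0.47 in I-post C against Sham (-0.54 to 1.49). These intervals include a doubling of the level, which this design therefore could not tell from no change. Without IR 1 the first turned to -0.11, and without IR 2 or IR 3 the second turned to -0.16 or -0.03.

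Cldn3 (chr12:21831342-21832813, minus strand), a sealing claudin of type 2 and airway cells, had the largest log2FC of the set in IR against Sham, and a single library carried it. FPKM was 13.97, 3.755 and 75.4 in Sham, 5.08, 7.366 and 7.29 in IR and 10.92, 8.315 and 6.141 in I-post C. The other Sham libraries spanned the range of both treated groups, and Sham 3 was 8.51 times their mean. The log2FC was -2.22 ± 0.88 (SE) in IR against Sham (95% interval -4.20 to -0.23, adjusted p = 0.3537 by edgeR), and -2.01 in I-post C against Sham (-3.98 to -0.04, adjusted p = 0.7179). DESeq2 gave -2.23 with an adjusted p of 0.09713 in the first comparison, the smallest adjusted p of this gene under any alternative there. Without Sham 3 the values were -0.24 (-1.32 to 0.85) and -0.02 (-1.11 to 1.07). I-post C against IR gave 0.21 (-1.70 to 2.12), and -0.02 without I-post C 1.

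Cldn5 (chr11:86356294-86357718, minus strand), the endothelial claudin, is listed at 0 in Sham 1, Sham 2 and IR 2. Its FPKM was 73.07 in Sham 3, 5.306 in IR 1, 14.38 in IR 3, and 4.122, 11.67 and 4.817 in I-post C. Endothelial markers were measured in all 9 libraries, the lowest sum being 710.8 FPKM. The whole annotated span of Cldn5, 1425 bases, lies within the span of Cdc45 (chr11:86329012-86358453) on the opposite strand in the deposited rn6 table. In RefSeq GRCr8 the spans of these genes share 0 bases. The libraries were made with dUTP marking of the second strand, but whether the counting used strand is not stated, and without it the reads of the pair cannot be told apart. Cdc45, which encodes a helicase factor of DNA replication, had FPKM of 30.89, 16.16 and 159.3 in Sham, 26.96, 54.09 and 39.5 in IR and 55.04, 69.92 and 44.51 in I-post C. Other replication and proliferation genes were far lower. Mcm2, a subunit of the same helicase, ranged from 5.527 to 8.754 and Mki67, a proliferation marker, from 0.6245 to 4.726.

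Counts at this locus were mostly assigned to Cdc45. Cldn5 had 0, 0 and 5869 counts in Sham, 380, 0 and 1087 in IR and 318, 877 and 379 in I-post C, and Cdc45 had 10946, 5577 and 57379, then 8660, 19654 and 13389, then 19047, 23558 and 15693. Cldn5 took 9.28% of the locus in Sham 3, 7.51% in IR 3 and between 0% and 4.2% in the other libraries. How a count was made is not given, so no counting limit is set on the zeros.  The log2FC was -1.84 in IR against Sham (95% interval -7.16 to 3.47, adjusted p = 0.8015 by edgeR), -0.17 in I-post C against IR and -2.01 in I-post C against Sham, and limma on FPKM turned all 3 positive (0.41, 0.93 and 1.34). With the counts of both genes summed, an alternative added after the data had been seen, the locus held 213.7, 117.8 and 1236 CPM (counts scaled to the library total) in Sham, 200.4, 385.2 and 317.4 in IR and 392.5, 509.1 and 326.6 in I-post C. Sham 3 was again the highest, and the other Sham libraries were below all I-post C libraries. The log2FC of the sum was -0.82 in IR against Sham (-2.52 to 0.89, adjusted p = 0.7192), 0.32 in I-post C against IR (-1.38 to 2.02) and -0.49 in I-post C against Sham (-2.19 to 1.21). The Cldn5 level is therefore reported as uncertain in every library.

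**Figure D3:**
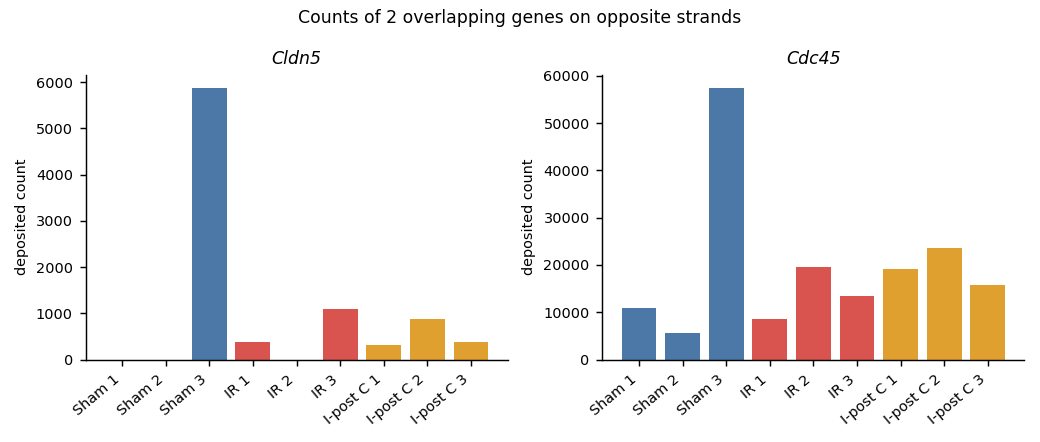
Deposited counts (y axis, a different scale in each panel) of Cldn5 (left) and Cdc45 (right) in the 9 libraries (x axis, bars coloured by group). Sham 3 is the highest bar of both panels (5869 and 57379), and Cldn5 has no bar in Sham 1, Sham 2 and IR 2, where its count is 0.

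Ocln (chr2:30527715-30577218, minus strand) encodes occludin, a tetraspanning protein of the junctional membrane. FPKM was 19.31, 14.81 and 9.626 in Sham, 21.5, 20.63 and 16.63 in IR and 18.62, 15.84 and 18.19 in I-post C. Every IR library was above Sham 2 and Sham 3, while Sham 1 lay within the IR range, so the groups overlapped. The log2FC in IR against Sham was 0.51 ± 0.20 (SE; 95% interval 0.06 to 0.96, adjusted p = 0.3498 by edgeR). It did not pass the test over all genes. Over the alternatives it stayed between 0.31 and 0.65, with adjusted p from 0.1184 to 0.823, and the lowest value was that without Sham 3. I-post C gave -0.28 against IR (-0.73 to 0.17) and 0.23 against Sham (-0.22 to 0.68), the latter being 0.03 (-0.31 to 0.38) without Sham 3 and 0.10 with an offset for transcript length.

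F11r (chr13:89826254-89850612, plus strand) encodes JAM-A, an immunoglobulin-type adhesion protein of epithelial and endothelial junctions, platelets and leukocytes. It had the smallest spread of the set, with FPKM of 146, 158.5 and 165.6 in Sham, 127.1, 129.2 and 113.9 in IR and 138.8, 125.6 and 129.4 in I-post C. All Sham libraries were above all IR and all I-post C libraries. Group means were 156.7 ± 9.912, 123.4 ± 8.256 and 131.3 ± 6.786 (SD, n = 3 each). F11r was the single member of the set whose groups did not overlap, 1 of 9 in IR against Sham and in I-post C against Sham, where 9.44% and 4.08% of all genes did not overlap in the lower direction. No member lay wholly higher in either comparison (5.62% and 5.56% of all genes), and in I-post C against IR the groups of every member overlapped (11.2% higher and 2.59% lower among all genes). The log2FC was -0.29 in IR against Sham (95% interval -0.67 to 0.09, adjusted p = 0.5326 by edgeR), -0.33 in I-post C against Sham (-0.71 to 0.05, adjusted p = 0.7458) and -0.04 in I-post C against IR (-0.42 to 0.34). The difference from Sham was therefore not past the test. Over the alternatives it ranged from -0.42 to -0.21 in IR and from -0.46 to -0.24 in I-post C. 

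Tjp1 (chr1:126146489-126227469, minus strand) encodes ZO-1, the scaffold that binds claudin tails and actin. FPKM was 54.85, 33.08 and 18.58 in Sham, 40.68, 29.71 and 22.83 in IR and 39.92, 39.47 and 34.87 in I-post C. The Sham group alone spanned the values of the other groups, and the I-post C libraries were close together. The log2FC was -0.10 in IR against Sham (-0.75 to 0.56), 0.18 in I-post C against IR (-0.47 to 0.84) and 0.08 in I-post C against Sham (-0.57 to 0.74). The direction of the first turned to 0.22 without Sham 1 and to 0.01 without IR 3, and that of the last turned to -0.20 without Sham 3. Cgn (chr2:195909626-195935878, minus strand) encodes cingulin, a plaque protein that binds ZO-1 and myosin. FPKM was 16.82, 16.28 and 9.739 in Sham, 11.22, 11.15 and 8.489 in IR and 12.07, 10.67 and 11.73 in I-post C. Sham 1 and Sham 2 were above every treated library, while Sham 3 was below 5 of the 6. The log2FC was -0.40 ± 0.20 (SE) in IR against Sham (95% interval -0.85 to 0.04, adjusted p = 0.4597 by edgeR), -0.36 in I-post C against Sham (-0.81 to 0.08) and 0.04 in I-post C against IR (-0.41 to 0.48). Without Sham 3 the IR value was -0.59 (-0.95 to -0.24, adjusted p = 0.2529) and that of I-post C -0.55 (-0.90 to -0.20, adjusted p = 0.6822). An offset that removes the length trend from each library, added after the data had been seen, gave -0.55 (-0.95 to -0.14, adjusted p = 0.2539) and -0.54 (-0.94 to -0.13, adjusted p = 0.5877). Without Sham 2 the values were -0.26 (adjusted p = 0.654) and -0.22 (adjusted p = 0.8735). The size of the Cgn difference thus depended on which Sham library was left out, and none of these values passed the adjusted threshold.

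The levels were also set against markers of the cells that hold these junctions. The log2 ratio of a gene to the geometric mean of a marker list was compared between groups by a two-sided exact permutation test, whose smallest p with 3 against 3 libraries is 0.1, so no call was possible. Of 27 such tests, the lowest adjusted p was 0.8308. Cgn over pan-epithelial markers was -2.04, -2.03 and -2.08 in IR and -1.72, -1.82 and -1.73 in I-post C. These groups did not overlap, with a difference of 0.29 and the smallest exact p of 0.1. The Sham libraries were at -1.31, -1.45 and -2.17. In I-post C against IR, 9 of the 10 pan-epithelial markers had an edgeR log2FC below 0, with a median of -0.25. That of Cgn itself was 0.04 by edgeR and 0.16 by limma on log2(FPKM + 0.5). The ratio was taken on FPKM, so the part of its difference that lay in the markers depends on the scale. That part was not tested. Cldn4 over the same markers was the other ratio at that exact p. It was -3.85, -3.34 and -3.43 in I-post C and -3.90, -5.18 and -3.88 in Sham, a difference of 0.78 that ranged from 0.35 to 1 with single libraries left out, and -3.22, -4.71 and -4.07 in IR. By edgeR, 9 of the 10 markers were below 0 in I-post C against Sham, with a median of -0.15. Cldn4 itself was at 0.47 there (95% interval -0.54 to 1.49). The part of the markers in this difference was not tested. Ocln over the same markers was -1.10, -1.15 and -1.11 in IR, -1.10, -1.25 and -1.09 in I-post C and -1.11, -1.59 and -2.18 in Sham, so that all 6 treated libraries were at the level of Sham 1. Cldn18 over alveolar type 1 markers averaged 0.59 for Sham, 0.89 for IR and 0.78 for I-post C, and over alveolar type 2 markers -0.62, -0.25 and -0.26. The differences of IR from Sham, 0.30 and 0.38, had exact p of 0.4 and 0.2. Sham 3 was the lowest library of both ratios, with 0.19 against 0.63 and 0.94 in the other Sham libraries for type 1, and -1.12 against -0.28 and -0.46 for type 2. With single libraries left out these differences ranged from 0.10 to 0.48 and from 0.12 to 0.55, the lowest of each without Sham 3.

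The make-up of the claudin family was described as the share of each gene in the summed FPKM of the 23 claudin genes in the table. Cldn18 took 81.83%, 75.48% and 45.89% in Sham, 81.74%, 82.63% and 77.76% in IR and 81.38%, 77.84% and 80.62% in I-post C. Apart from Sham 3, it was thus at least 75.48% of claudin FPKM in each library. The sum takes Cldn5 as deposited, and that level is uncertain, with most counts of the locus assigned to Cdc45. The Cldn18 share would be lower if a part of those counts came from Cldn5, which was not tested. Cldn7 took between 6.44% and 11.61%. Cldn3 took 16.55% in Sham 3 and between 0.7781% and 2.791% elsewhere. Cldn15, a pore-forming claudin that is not among the 9, took 2.64%, 6.335% and 3.022% in Sham and 0.7526% to 1.693% in the treated libraries. The summed claudin FPKM was 500.5, 482.6 and 455.7 in Sham, 445.9, 419.4 and 398 in IR and 485.4, 434 and 380 in I-post C.

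**Figure D4:**
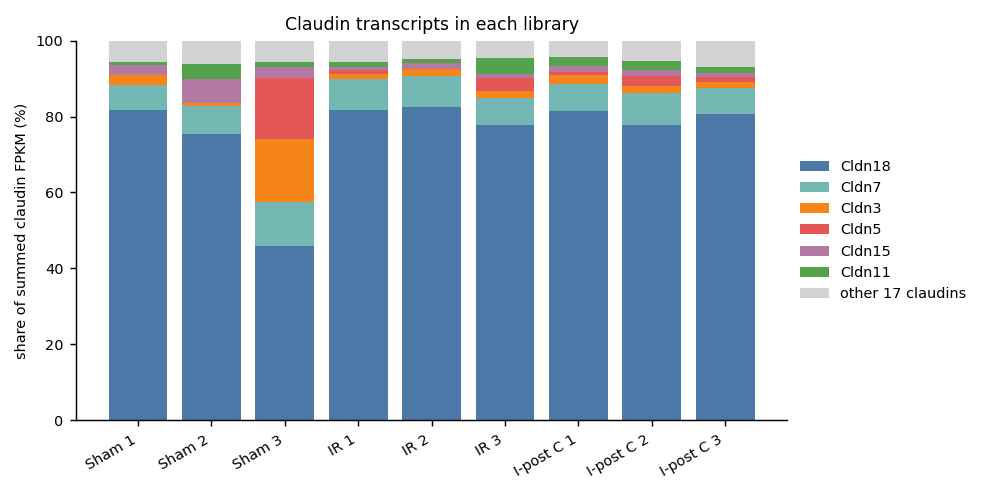
Share in percent of the summed claudin FPKM (y axis) taken by Cldn18, Cldn7, Cldn3, Cldn5, Cldn15, Cldn11 and all other claudins in each library (x axis). Cldn18 fills between 75.48% and 82.63% of 8 bars and 45.89% of the Sham 3 bar, where Cldn3 fills 16.55% and Cldn5 16.04%. The Cldn5 level is uncertain, and all shares depend on it.

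Sham 3 was where the 9 genes differed most from each other. Relative to the mean of the other 8 libraries in log2(FPKM + 0.5), Sham 3 was higher by 4.74 for Cldn5, 3.28 for Cldn3, 0.68 for Cldn7, 0.32 for F11r and 0.13 for Cldn4. Its differences for Cgn, Cldn18, Ocln and Tjp1 were -0.29, -0.75, -0.87 and -0.93. The order resembled that of transcript length. Relative lengths implied by the ratio of counts to FPKM were 1350 nucleotides for Cldn7, 1578 for Cldn5, 1641 for Cldn3, 1712 for Cldn18, 2003 for Cldn4 and 2650 for F11r, against 4794 for Ocln, 5673 for Cgn and 7706 for Tjp1. Cldn18 departed from that order. Over 13998 genes, the median deviation from the average library was, on the log2 scale, 0.37 in Sham 3 for the shortest transcripts (under 1296 nucleotides) and -0.51 for the longest (over 4277). The opposite trend was seen in Sham 1, with -0.14 and 0.38. The values of Cldn3 and Cldn5 in Sham 3 lay at the 99.4th and 99.8th percentile of all genes, so they were far beyond the trend. Those of the other 7 genes lay between the 15.7th and 84.1th. The Cldn5 level is uncertain, and its difference depends on the added 0.5, since Cldn5 is listed at 0 in Sham 1, Sham 2 and IR 2. With Cdc45 counts summed in, the locus held 1236 CPM in Sham 3 and 117.8 to 509.1 elsewhere. By the study's sequencing summary, Sham 3 also had the highest GC content, the highest share of exonic reads and the lowest share of uniquely mapped reads of all libraries. What part these have in the values of Sham 3 was not tested. What part length has in the differences of single genes was not tested beyond the length offset also given for Cgn. In IR against Sham that offset gave 0.41 for Ocln (0.07 to 0.75, adjusted p = 0.2925), -0.30 for F11r, -1.98 for Cldn3, 0.46 for Cldn4, 0.20 for Cldn18, -0.07 for Cldn7 in place of -0.25 and -0.23 for Tjp1 in place of -0.10.

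**Figure D5:**
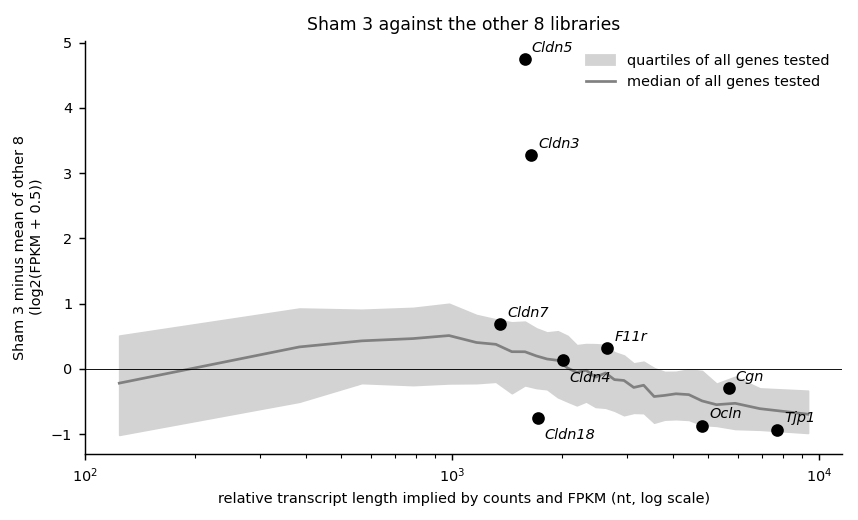
Difference of Sham 3 from the mean of the other 8 libraries in log2(FPKM + 0.5) (y axis) against the relative transcript length in nucleotides implied by counts and FPKM (x axis, log scale). The line and band are the median and quartiles of all genes in length bins, and the labelled points are the 9 genes. Cldn3 (3.28) and Cldn5 (4.74) lie far above the band. Cldn5 is listed at 0 in Sham 1, Sham 2 and IR 2, so its point depends on the added 0.5.

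For the 3 members whose group means ranged most widely, the genes with the most similar profile over the 9 libraries were looked up by the root mean square difference of centred log2(FPKM + 0.5). For Cldn3 these were LOC100910875 (0.19), Vbp1 (0.24) and Dhrsx (0.25). Vbp1, a prefoldin subunit, had 135.1 FPKM in Sham 3 and 6.379 to 17.37 elsewhere, and Dhrsx had 53.35 against 3.418 to 8.012. For Cldn5 the nearest were Cebpd (1.52), Junb (1.57) and AABR07042821.1 (1.60), and no close match was found. Cebpd, an acute-phase transcription factor, had 165.4 FPKM in Sham 3 and 2.052 to 8.559 elsewhere. Junb, an immediate early gene, had 64.55 against 2.345 to 21.67. For Cldn4 the nearest were AABR07061310.1 (0.22), Zpbp2 (0.24) and Syne3 (0.25). Points of the same library share its depth and preparation, and the likeness is a description over 9 libraries.

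Other genes of the junction were counted from lists chosen by role, and by edgeR 0 of them were DEGs in any comparison. Among the other claudins, 12 were tested, and at an unadjusted p under 0.05 there were 2 lower in IR against Sham (5.77% of all tested), 0 in I-post C against IR (1.96%) and 3 lower in I-post C against Sham (3.19%), with median log2FC of -0.30, 0.10 and -0.13. Cldn15 was 13.21, 30.57 and 13.77 FPKM in Sham, 3.356, 6.332 and 3.929 in IR and 8.216, 6.376 and 4.105 in I-post C. All Sham libraries were above all others, and the log2FC was -2.03 ± 0.45 (SE, adjusted p = 0.1301) in IR and -1.72 (adjusted p = 0.5091) in I-post C. Among 11 further membrane proteins, which include JAM family and angulin genes, 1 was higher at that level in IR against Sham (6.47% of all genes), Cxadr, the coxsackievirus and adenovirus receptor, with 0.83 (adjusted p = 0.3241). Its value in I-post C against IR was -0.69 (adjusted p = 1), the 1 lower in that comparison (1.96% of all genes).

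Among 25 other plaque and polarity genes, 3 were lower at an unadjusted p under 0.05 in IR against Sham (5.77% among all genes) and 0 higher (6.47%), with a median log2FC of -0.06. In I-post C against IR there were 0 in either direction, and in I-post C against Sham 3 lower (3.19% of all genes) and 0 higher (3.72%). Amotl2, an angiomotin that binds the junctional polarity complex, was 55.85, 36.62 and 38.28 FPKM in Sham, 17.74, 17.11 and 8.516 in IR and 18.85, 18.4 and 35.01 in I-post C. All its Sham libraries were above the treated ones, and the log2FC was -1.53 ± 0.32 (SE, adjusted p = 0.1156) in IR against Sham, 0.64 in I-post C against IR and -0.89 in I-post C against Sham. Tjp3, which encodes the ZO-1 relative ZO-3, was at -1.67 (adjusted p = 0.3333) in IR against Sham, with its highest value, 8.133 FPKM, in Sham 3. Among 16 adherens junction genes, the log2FC in IR against Sham was above 0 for 14 (47.9% of all genes), with a median of 0.15. At an unadjusted p under 0.05 there were 1 higher (6.47% of all genes) and 1 lower (5.77%) in that comparison. The higher gene was Nectin4 at 1.02 (adjusted p = 0.1301). The lower was Jup, which encodes plakoglobin, at -0.87 (adjusted p = 0.1667), against the direction of most of the list. Jup was 93.73, 71.01 and 113.9 FPKM in Sham, 47.98, 53.82 and 43.97 in IR and 78.4, 69.3 and 63.05 in I-post C, and the I-post C libraries lay between the other groups or within Sham. The lists were not tested against each other or against the 9 genes.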

How the data were processed

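Lung RNA of 3 Sham, 3 IR and 3 I-post C libraries was sequenced as paired ends, with groups taken from the labels and times from the methods. The submitters' processing notes name cutadapt 1.9, HISAT2 2.2.1, StringTie 2.1.6 and the rn6 genome. The FPKM values were deposited by the authors, scaled for transcript length and library size. Whole-number counts for each gene were also deposited, and how they were made, with strand or without, is not stated in the sources used here. Depth was similar (45110590 to 51214941 counts).

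Counts were fitted with edgeR 4.0.16 (R 4.3.3), quasi-likelihood test, with TMM scaling and group as sole term across the 9 libraries, over the 15402 genes whose mean FPKM reached 0.5. P-values were two-sided and adjusted by Benjamini-Hochberg over all genes tested. A DEG needed an adjusted p under 0.05 and an absolute log2FC of 1 or more. DESeq2 1.42.0, limma 3.58.1 on log2(FPKM + 0.5), with pseudocounts of 0.1 and 1 as well, RLE scaling, other filters, a replicate block and leaving out libraries were alternatives. The scripts were tested on simulated counts with known changes. In the 3 comparisons edgeR called 2%, 7% and 2% of 2-fold changes, which lie at the size cutoff, and 44%, 54% and 62% of 4-fold changes. DESeq2 called 22%, 22% and 23%, and 78%, 73% and 84%. False calls were 2, 1 and 2 by edgeR and 48, 56 and 41 by DESeq2. The lack of a call by edgeR thus does not show a lack of change. Named genes were the 9 members, up to 4 genes per other list and comparison with the lowest p among those with a mean FPKM of at least 1, and the 3 genes of the most similar profile for 3 members. Not all genes this rule allows are named. Mcm2, Mki67 and Cdc45 were chosen after values were seen. The members and lists were chosen with earlier results of these data known. Promoters are from RefSeq GRCr8. The remaining columns of the table hold annotation.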

Additional observations from a re-analysis of the deposited data

How the results depend on the processing

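The 9 genes were not called in any of the 3 comparisons under any of the 22 alternatives. Apart from Cldn3 and Cldn5, their log2FC stayed below 1 in size in each alternative, so the size cutoff alone barred a call. In IR against Sham the number of DEGs among all genes was 46, and it was 337 with DESeq2 on all 9 libraries, 293 with DESeq2 on the 6 compared, 6 with edgeR on those 6, 26 with the replicate block, 5 without Sham 3 and IR 3 together, and between 0 and 55 with single libraries left out. Of these it was 1 when Sham 1, Sham 3 or I-post C 2 was left out, 0 for Sham 2 or IR 2, 27 for IR 1, 5 for IR 3 and 20 for I-post C 1. In I-post C against IR it was 0, and 15 and 37 with the same DESeq2 fits, 1 without Sham 3 and IR 3, and between 0 and 1 with single libraries left out (1 without IR 3). In I-post C against Sham it was 0, and 127 and 108 with DESeq2, 1 with limma at each pseudocount, 2 without Sham 3 and IR 3, and between 0 and 8 with single libraries left out (2 without IR 3, 8 without I-post C 3). At an unadjusted p under 0.05 edgeR had 161 higher and 302 lower genes in I-post C against IR, and 573 and 492 when I-post C was set against Sham.

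Same-numbered libraries of different groups correlated from -0.22 to 0.43, and differently numbered ones from -0.36 to 0.35. These ranges overlap widely and cannot settle whether libraries were paired by replicate number. In the replicate block fit Cldn5 turned to 0.89 in IR against Sham, 2.53 in I-post C against IR and 3.42 in I-post C against Sham. Limma on FPKM, whose median over all genes with I-post C set against IR was 0.11, 0.12 and 0.10 at pseudocounts of 0.5, 0.1 and 1 (edgeR -0.01), turned Cldn5 to 0.41, 0.93 and 1.34 at a pseudocount of 0.5, 1.14, 1.65 and 2.79 at 0.1, and 0.13, 0.65 and 0.78 at 1, and in I-post C against IR it turned Cldn18 to 0.02 and F11r to 0.09. Without Sham 3 and IR 3 together, IR against Sham turned to 10.65 for Cldn5, 0.07 for Cldn7 and -0.09 for Cldn18, I-post C against IR to -0.02 for Cldn4, 1.37 for Cldn5 and -0.01 for Cgn, and I-post C against Sham to 12.02 for Cldn5, -0.18 for Cldn18 and -0.20 for Tjp1. The Cldn5 values above 10 rest on Sham libraries at 0 and depend on the prior count. Summing Cldn5 with Cdc45 gave 0.32 in I-post C against IR, and the length offset gave -0.07 for Tjp1 in I-post C against Sham. With single libraries left out, log2FC in IR against Sham ranged from -0.11 to 0.67 for Cldn4, -3.38 to 12.13 for Cldn5, -0.46 to 0.04 for Cldn7, -0.08 to 0.26 for Cldn18 and -0.39 to 0.22 for Tjp1. In I-post C against IR it ranged from -0.02 to 0.38 for Cldn3, -0.16 to 0.59 for Cldn4, -0.75 to 1.35 for Cldn5, -0.09 to 0.01 for F11r and -0.02 to 0.11 for Cgn, and in I-post C against Sham from -2.61 to 11.98 for Cldn5, -0.18 to 0.16 for Cldn18 and -0.20 to 0.41 for Tjp1.

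Of the log2 ratios to markers, Cldn3, Cldn7 and Cldn18 over pan-epithelial markers turned to 0.33, 0.06 and -0.02 in I-post C against Sham without Sham 3 and IR 3 together, and Cldn18 in IR against Sham to -0.21. Over alveolar type 1 markers, Cldn18 turned to -0.01, 0.01 and -0.01 in the 3 comparisons. With the median of the markers, I-post C against IR turned to -0.05 for Cldn7, and for Cldn18 to 0.15 over type 1 and 0.04 over type 2 markers. With single libraries left out, these ratios over pan-epithelial markers ranged as follows. In IR against Sham they ranged from -0.11 to 0.67 for Cldn4 and -0.16 to 0.36 for Cldn18. In I-post C against IR the range was -0.01 to 0.24 for Cldn7 and -0.06 to 0.02 for Ocln. In I-post C against Sham it was -1.84 to 0.33 for Cldn3, -0.26 to 0.06 for Cldn7, -0.02 to 0.50 for Cldn18 and -0.38 to 0.05 for Cgn. Cldn18 ranged from -0.20 to 0.01 (I-post C against IR) and -0.01 to 0.37 (I-post C against Sham) over type 1 markers, and from -0.08 to 0.11 (I-post C against IR) over type 2 markers. Cldn5 over endothelial markers ranged from -0.76 to 3.01, -0.88 to 1.68 and -0.20 to 3.57 in the 3 comparisons. The cause of these shifts was not tested. With 3 libraries per group, intervals as wide as those of Cldn4 and Cldn5 cannot tell a doubling from no change. The same holds for Cldn3 in I-post C against IR (-1.70 to 2.12), while its differences from Sham rest on Sham 3.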
